A study of Mus musculus with 10 samples.

Results

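The miR-25, miR-32 and miR-92 family is the group of microRNAs that share 1 seed, the short stretch at bases 2 to 8 of the mature strand. Its members were taken by name: every row called miR-25, miR-32, miR-92a, miR-92b, miR-363 or miR-367 once the species prefix and any arm suffix were removed. The names found 5 of the 285 microRNAs listed, namely miR-92a, miR-25, miR-32, miR-92b and miR-363-3p, and miR-367 is not analysed here. Small RNAs were sequenced from whole liver of mice 14 weeks old, in 5 control libraries and 5 Tsc1 mutant libraries. The mutants carry the genotype that the labels call L-Tsc1KO, and the controls are their littermates. Tsc1 encodes a subunit of the complex that restrains the growth kinase mTORC1, and its own transcript was not measured here. The promoter or Cre driver behind the deletion is not given in the sources used here. Nothing in the labels says whether each library came from a different animal, so p-values measure the spread between these libraries only.

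A microRNA guides an Argonaute protein to messenger RNAs that pair with its seed, and this lowers the output of those messages, so members with 1 seed can share many targets. A known target of this seed is Bcl2l11, which encodes the pro-apoptotic protein Bim. miR-92a is the last hairpin of the miR-17-92 transcript, and miR-25 of the miR-106b-25 group, both known for their control by the growth-promoting factors MYC and E2F. miR-32 and miR-92b come from hairpins that stand alone, miR-363 from the X-linked relative of miR-17-92, and miR-367 from a cluster known from pluripotent cells.

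The mature sequences, from the RefSeq table for mouse build GRCm38.p6, are shown because the shared seed defines the family and the remaining bases set its members apart. Capitals mark the seed.
miR-92a-3p: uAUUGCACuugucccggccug
miR-92b-3p: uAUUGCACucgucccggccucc
miR-25-3p: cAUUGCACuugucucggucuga
miR-32-5p: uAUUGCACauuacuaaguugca
miR-363-3p: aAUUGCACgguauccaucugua
miR-367-3p: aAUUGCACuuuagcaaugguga
The seed AUUGCAC stood in 6 of the 1679 mature entries of that table, and these were the 6 names of the family. Over the first 21 positions, counted from 1 at the 5′ end, miR-92b differed from miR-92a at 2 positions (U10C and G21C). miR-25 differed from miR-92a at 3 positions (U1C, C14U and C18U). miR-32 differed from it at 10 positions, miR-363 at 11 and miR-367 at 9. Miscounting of near-identical reads is therefore possible between miR-92a, miR-92b and miR-25 rather than among the rest, and it was not tested. Base composition differed too. G and C made up 31.8% of miR-32, 40.9% of miR-363, 57.1% of miR-92a and 63.6% of miR-92b, and 11 of the 22 bases of miR-25. Of the family rows only miR-363-3p names its arm, so the other rows were matched to the arm that older naming gives without a suffix (miR-32-5p, and the 3p arm of miR-25, miR-92a and miR-92b).

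miR-92a has a pair of hairpins in the genome, shown here because the same mature strand (capitals) is cut from both and its row cannot be divided between them.
Mir92-1: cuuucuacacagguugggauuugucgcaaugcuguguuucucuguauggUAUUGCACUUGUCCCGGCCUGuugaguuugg
Mir92-2: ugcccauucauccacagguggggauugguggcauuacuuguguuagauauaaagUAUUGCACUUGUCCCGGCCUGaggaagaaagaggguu
Mir92-1 lies at chr14:115044427-115044506 on the plus strand of GRCm38, in an exon of the non-coding host gene Mir17hg (chr14:115042879-115046727). Mir92-2 lies at chrX:52741838-52741928 on the minus strand, in intergenic sequence, next to Mir363 (chrX:52741693-52741767, same strand). Mir25 lies at chr5:138165321-138165404 on the minus strand, in an intron of Mcm7, which encodes a subunit of the replicative helicase, and its neighbours Mir93 and Mir106b are in that gene's introns too. Mir32 lies at chr4:56895229-56895298 on the minus strand, in an intron of Tmem245. Mir92b lies at chr3:89227116-89227198 on the minus strand, 28 bases outside the mitochondrial import gene Mtx1. These positions are from the reference annotation (GENCODE M21), since the build behind the deposited values is not given in the sources used here.

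Each library held between 6228497 and 12129069 reads on the listed microRNAs, and values are normalised reads, that is reads scaled by 1 factor per library. Reads were inferred from the steps between values, since each value was a whole multiple of 1 step per library, and no raw counts were used. A single read was then worth 0.711 to 1.68 normalised reads. Differences between genotypes are log2 fold changes, mutant over control, of the normalised value plus 1, tested with limma with Benjamini-Hochberg adjustment over all 285 microRNAs at a threshold of 0.05. Replicate 1 of each genotype was the highest or lowest library of its genotype for many of the microRNAs below, and control 1 mostly lay farther out than mutant 1. The genotype differences of the members, their sum and their ratios are therefore given with and without that pair. Hepatocyte microRNAs fixed as markers were all present (5 of 5, led by miR-122), and their summed level was 3713770 to 4565320 in the mutants and 3424630 to 5492140 in the controls. The sum hides miR-802, a minor part of it, which was called higher in the mutants (log2 fold change 1.72, limma adjusted p = 2.58e-04).

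miR-92a and miR-25 made up nearly the whole family, with 99.1% to 99.8% of its reads in each library. miR-92a, known for targets in the vascular endothelium, was the member with the most reads, and its mean level over the 10 libraries ranked 25 among the 285 microRNAs. miR-25 ranked 36, miR-32 160, miR-92b 240 and miR-363-3p 275. All members passed the minimum mean of 5 normalised reads (5 of 5). miR-92a exceeded miR-25 in 10 of 10 libraries, miR-25 exceeded miR-32 in all 10, and miR-32 exceeded miR-92b in all 10. The order at the bottom was less sure: miR-92b exceeded miR-363-3p in 5 of 5 controls and in 2 of 5 mutants, with about 10 reads behind many of these values. Together the family took 0.779% ± 0.201 (SD, n = 5) of the listed reads in controls and 0.615% ± 0.0773 (SD, n = 5) in mutants.

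**Figure D1:**
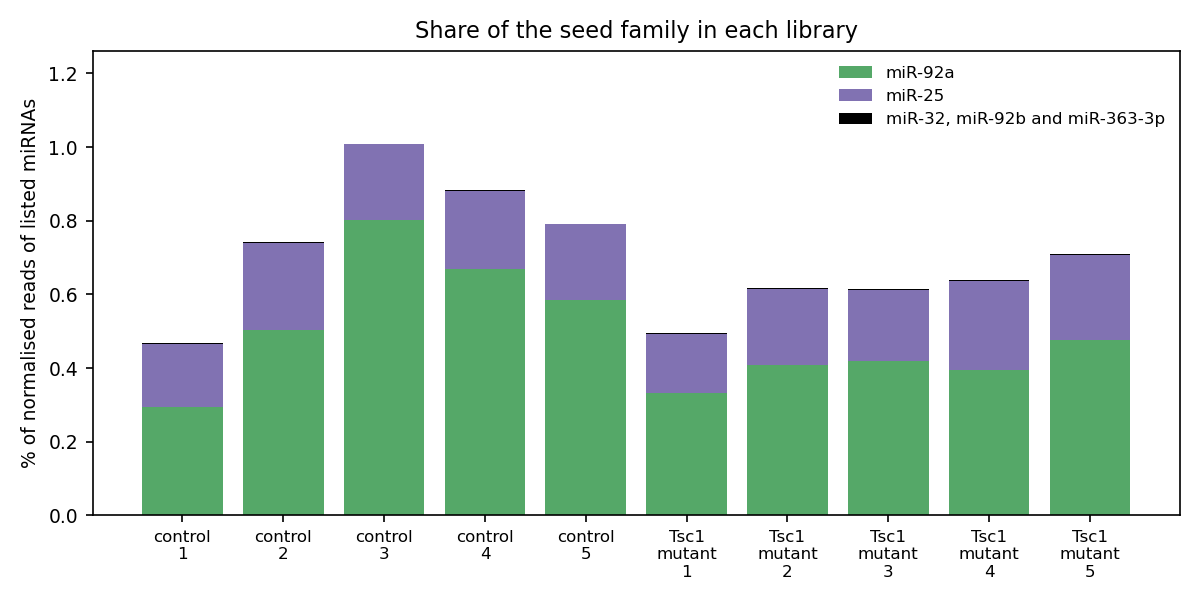
Stacked bars of the percent of all listed microRNA reads that miR-92a, miR-25 and the other 3 members took in each of the 10 libraries. The 3 low members are barely visible, and the family's share averages 0.779% in controls and 0.615% in mutants, with replicate 1 the lowest bar of each genotype.

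**Figure D2:**
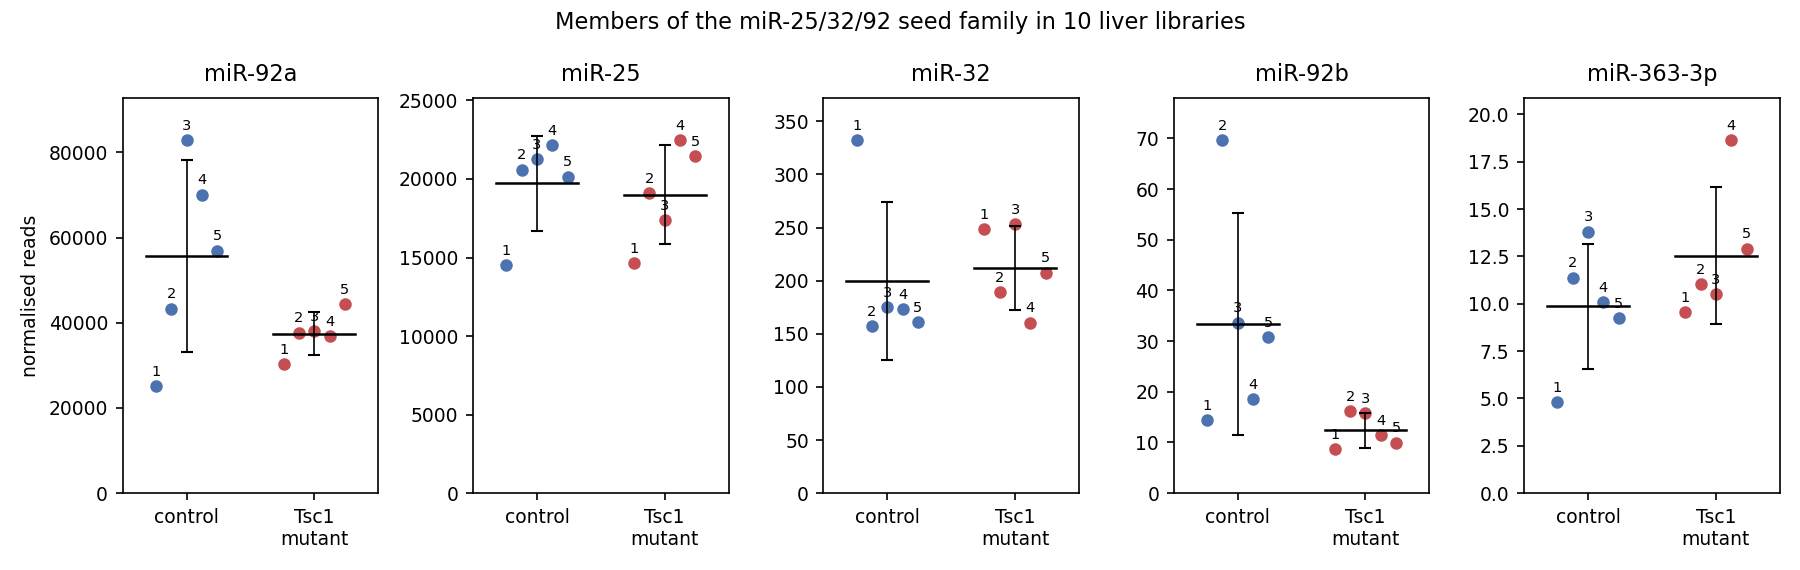
Normalised reads of each family member in the 10 libraries (linear axes from 0, each panel with its own scale), controls in blue and Tsc1 mutants in red. Numbers are replicates, horizontal lines are group means and bars are 1 SD (n = 5), and the mutant points of miR-92a lie between 30291 and 44416 while its control points run from 25146 to 82911.

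For miR-92a, as for miR-92b after it, the call depended on the libraries used. In the controls its level was 25146, 43295, 82911, 70067 and 56957 normalised reads for replicates 1 to 5. In the mutants it was 30291, 37705, 37971, 36786 and 44416 normalised reads. Replicate 1 was the lowest library of both genotypes, controls 3, 4 and 5 lay above every mutant, and control 2 lay below mutant 5. The mean level was 55675 ± 22560 (SD, n = 5) in controls and 37434 ± 5014 (SD, n = 5) in mutants. The log2 fold change was -0.47 ± 0.28 (SE), with a 95% interval of -1.09 to 0.15 and a limma adjusted p of 0.410, so the difference was within the spread between libraries. Without the replicates 1, the means were 63308 ± 17037 and 39220 ± 3501 (SD, n = 4 each). The log2 fold change was then -0.65 ± 0.19 (SE), with a 95% interval of -1.07 to -0.23 and a limma adjusted p of 0.0425, which passed the threshold. Control 2 was the lowest of the 4 controls left, so taking it out as well could only widen the difference, which was then -0.82 (adjusted p = 0.00269). Leaving out only control 1, the lowest control, could likewise only widen the difference and gave -0.73 (limma adjusted p = 0.0210). Leaving out only mutant 1 gave -0.40 (limma adjusted p = 0.555). Without control 3 alone, the highest library, it was -0.30 (adjusted p = 0.656). With all libraries and limma's array weights, which count variable libraries less, it was -0.75 (adjusted p = 0.00941).

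miR-92b, the nearest relative of miR-92a in sequence, had the largest fold change of the family on few reads. Its level in the controls was 14.4, 69.7, 33.6, 18.5 and 30.8 normalised reads for replicates 1 to 5. In the mutants it was 8.69, 16.1, 15.8, 11.5 and 9.93 normalised reads. Control 2 stood highest, with 98 reads, and control 1 was the only control inside the range of the mutants. The means were 33.4 ± 21.8 (SD, n = 5) and 12.4 ± 3.39 (SD, n = 5), and the log2 fold change was -1.19 ± 0.39 (SE), with a 95% interval of -2.05 to -0.32 and a limma adjusted p of 0.0791 (unadjusted p = 0.0117). This missed the threshold. Without the replicates 1, all 4 mutants lay below all 4 controls, an order that 7.72% of the 285 microRNAs showed. The log2 fold change was then -1.32 ± 0.39 (SE) with a limma adjusted p of 0.0498, just inside the threshold, and it was -0.98 (adjusted p = 0.0620) without control 2 as well. Leaving out only control 1, the lowest control, could only widen the difference and gave -1.43 (adjusted p = 0.0214). Array weights on all libraries gave -1.18 (adjusted p = 0.0131). The gap between the groups was narrow in reads. The lowest of these controls, replicate 4, rested on 11 reads, if reads are as inferred, whose exact 95% Poisson interval of 9.24 to 33.1 normalised reads covers the values of all 4 mutants and bounds counting error only.

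Control 2, the library highest in miR-92b, was also the highest in 3 of the 6 marker lists of other cell types. The 5 microRNAs of the miR-200 family, fixed as markers of biliary epithelium, summed to 35789 normalised reads there, 4996 to 6088 in the other controls and 3126 to 7014 in the mutants. The striated muscle markers (3 of 4 names present) summed to 5638 normalised reads in control 2, at most 559 in the other controls and at most 919 in the mutants. The stellate and smooth muscle markers summed to 363788 normalised reads in control 2 and to at most 243057 in any other library. The leukocyte, erythroid and endothelial sums were highest in other libraries. No marker of the 6 lists was at 0 in any library. Their part in the miR-92b values was not tested, and in whole liver a smaller share of cells of a type and less RNA per cell cannot be told apart.

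miR-25 differed little between the genotypes. Its level in the controls was 14500, 20577, 21260, 22163 and 20153 normalised reads for replicates 1 to 5. In the mutants it was 14644, 19078, 17390, 22477 and 21462 normalised reads. The groups overlapped over nearly their whole range, and replicate 1 was the lowest library in both. The means were 19730 ± 3021 and 19011 ± 3151 (SD, n = 5 each), and the log2 fold change was -0.05 ± 0.16 (SE), with a 95% interval of -0.40 to 0.29 and a limma adjusted p of 0.943. It was -0.07 (limma adjusted p = 0.650) without the replicates 1, and leaving out only mutant 1 turned its sign (0.035). A difference beyond that interval was not seen at this precision, and a smaller one could not have been detected.

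miR-32, whose hairpin lies in an intron of Tmem245, was low in liver beside miR-92a and miR-25. In the controls it was at 332, 157, 175, 173 and 161 normalised reads for replicates 1 to 5, and in the mutants at 249, 189, 253, 161 and 207. Control 1 was the highest of all 10 libraries, and the other 4 controls lay within or just below the range of the mutants. The log2 fold change was 0.13 ± 0.24 (SE; limma adjusted p = 0.865), and 0.26 ± 0.16 (SE; limma adjusted p = 0.333) without the replicates 1. Leaving out 1 library moved it between 0.057 (without control 2) and 0.33 (without control 1).

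miR-363-3p, from the X-linked cluster, was at the limit of what this depth can measure. Its level in the controls was 4.79, 11.4, 13.8, 10.1 and 9.24 normalised reads, from 6 to 16 reads. In the mutants it was 9.56, 11.0, 10.5, 18.6 and 12.9 normalised reads, from 10 to 13 reads. The groups overlapped, and the log2 fold change was 0.35 ± 0.30 (SE; limma adjusted p = 0.593). It was 0.22 (limma adjusted p = 0.621) without the replicates 1 and 0.14 without control 1 alone. A difference of this size was not detectable at this depth.

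With all 10 libraries, then, 0 of the 5 members passed the threshold in either direction. The same fit called 10.9% of the 285 microRNAs higher and 2.11% lower in the mutants. At an unadjusted p under 0.05 there was 1 member, miR-92b, beside 64 of the 285. Without the replicates 1 the fit called 12.3% higher and 3.86% lower, and miR-92a and miR-92b were among the lower ones. The median log2 fold change of the 5 members was -0.05 with all libraries and -0.07 without the replicates 1, beside -0.06 and -0.05 over all 285 microRNAs.

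**Figure D3:**
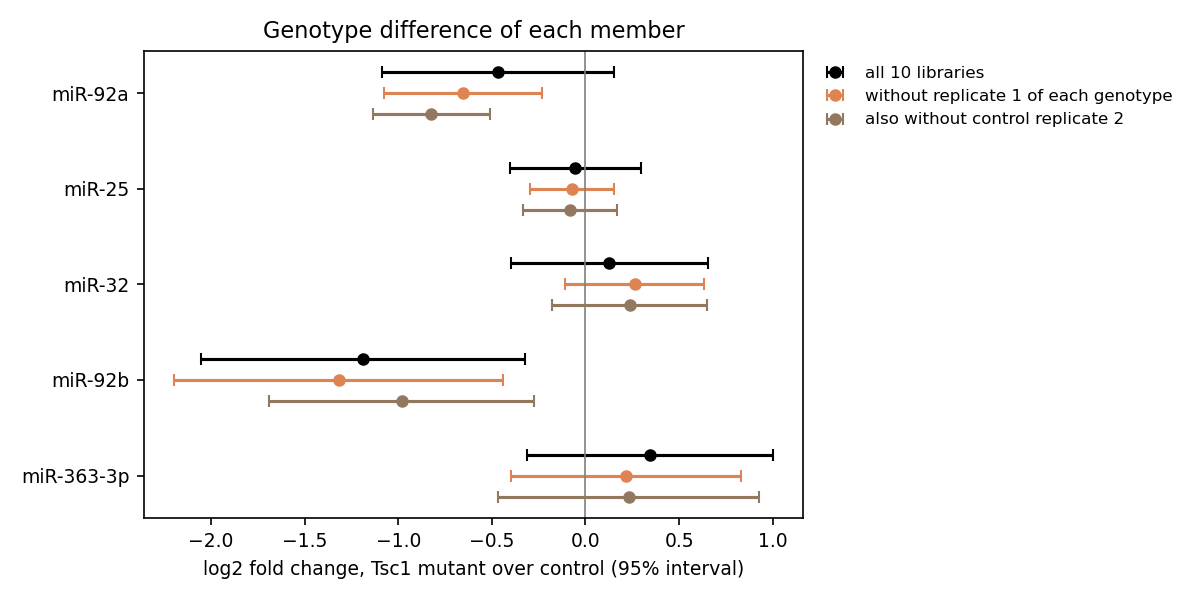
Log2 fold change, mutant over control, of the 5 family members with 95% intervals from limma, in all 10 libraries, without replicate 1 of each genotype, and also without control replicate 2. The first 2 intervals of miR-92a run from -1.09 to 0.15 and from -1.07 to -0.23, and that of miR-25 in all libraries runs from -0.40 to 0.29.

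The seed is shared, so the 5 rows were summed to give the family's total in normalised reads. In the controls it was 39997, 64110, 104393, 92432 and 77310 normalised reads for replicates 1 to 5, and in the mutants 45202, 57000, 55641, 59454 and 66109. The sum is made almost wholly of miR-92a and miR-25, and the lowest library of each genotype was again replicate 1. The log2 difference of the sums was -0.35 ± 0.26 (SE; 2-sided exact permutation test, p = 0.214, adjusted over 6 such tests 0.321). Without the replicates 1 it was -0.48 (exact permutation p = 0.0571, adjusted 0.114, where the smallest p that 4 against 4 allows is 0.0286). Leaving out only control 1 gave -0.56 and leaving out only control 3 gave -0.22.

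Ratios between members do not depend on the scaling of a library, except through the pseudocount of 1 added to each value. miR-92a took 71.9% ± 6.63 (SD, n = 5) of the family's reads in controls and 66.1% ± 2.47 (SD, n = 5) in mutants. The ratio of miR-92a to miR-25 was 1.73, 2.10, 3.90, 3.16 and 2.83 in controls 1 to 5, and 2.07, 1.98, 2.18, 1.64 and 2.07 in mutants 1 to 5. Controls 3, 4 and 5 lay above every mutant, and controls 1 and 2 lay among them. The log2 difference was -0.41 ± 0.22 (SE; exact permutation p = 0.0952, adjusted 0.238). For miR-92b against miR-25 it was -1.13 ± 0.38 (SE; exact permutation p = 0.0238, adjusted 0.143), and for miR-92b against miR-92a -0.72 ± 0.45 (SE; exact permutation p = 0.119, adjusted 0.238). The last value rested largely on control 2, without which it was -0.35, and without the replicates 1 as well -0.16. At levels as low as those of miR-92b the pseudocount matters. With a pseudocount of 10 in all libraries, miR-92b against miR-25 was at -0.78 and miR-92b against miR-92a at -0.37. With only the replicates 1 left out, the log2 difference was -0.58 for miR-92a against miR-25 (exact permutation p = 0.0571, adjusted 0.114). It was then -1.25 for miR-92b against miR-25 (exact permutation p = 0.0857, adjusted 0.129) and -0.67 for miR-92b against miR-92a (exact permutation p = 0.314, adjusted 0.314). For miR-92a against miR-25, leaving out only control 3 gave -0.27. None of the 6 tests passed after adjustment with all libraries. Without the replicates 1 none did either, but there 1 test alone could not have passed. The smallest exact permutation p of 4 against 4 is 0.0286, and miR-92a against its miR-17-92 mates, which reached it, had an adjusted p of 0.114. No conclusion is drawn from that second result.

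miR-92a and miR-25 are cut from transcripts that carry other microRNAs, and those mates are the other genes of the pathway fixed for this comparison. Of 10 mates listed, 8 had a row, and their sequences are shown with the seed in capitals because none has the seed of miR-92.
miR-17-5p: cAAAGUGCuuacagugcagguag
miR-20a-5p: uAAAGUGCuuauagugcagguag
miR-93-5p: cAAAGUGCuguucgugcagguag
miR-106b-5p: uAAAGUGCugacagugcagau
miR-106a-5p: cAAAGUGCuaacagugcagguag
miR-18a-5p: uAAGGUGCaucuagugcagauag
miR-19a-3p: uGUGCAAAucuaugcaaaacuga
miR-19b-3p: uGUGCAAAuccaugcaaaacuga
Seed AAAGUGC was shared by 5 of them and GUGCAAA by 2, and miR-18a had AAGGUGC. Of these 8 mates, 0 were called in either direction with all libraries or without the replicates 1, by limma, and 0 had an unadjusted p under 0.05 with all libraries. Over all 285 microRNAs, 10.9% were called higher and 2.11% lower with all libraries, and 64 had an unadjusted p under 0.05. Without the replicates 1 the shares were 12.3% and 3.86%. Counts among 8 mates are too small to be set apart from these shares. The mates' log2 fold changes with all libraries ran from -0.49 for miR-19a to 0.30 for miR-106a, with a median of 0.03.

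The ratio of a member to its mates asks whether products of 1 transcript kept their proportions. miR-25 over the sum of miR-93 and miR-106b was 2.62, 6.56, 7.24, 6.45 and 6.39 in controls 1 to 5, and 3.28, 5.57, 4.55, 7.36 and 6.19 in mutants 1 to 5. Replicate 1 was the lowest of both genotypes and the other libraries overlapped, with a log2 difference of -0.09 ± 0.34 (SE; exact permutation p = 0.770, adjusted 0.770). It was -0.19 (exact permutation p = 0.229, adjusted 0.274) without the replicates 1, and it ran from -0.36 without control 1 to 0.078 without mutant 1. miR-92a over the sum of its miR-17-92 mates was 1.01, 6.39, 10.2, 8.52 and 5.91 in controls 1 to 5, and 1.99, 5.18, 3.50, 4.66 and 5.50 in mutants 1 to 5. The log2 difference was -0.37 ± 0.65 (SE; exact permutation p = 0.571, adjusted 0.686), and it ran from -0.95 without control 1 to -0.12 without control 3. Without the replicates 1, all 4 mutants lay below all 4 controls, and the log2 difference was -0.70 ± 0.23 (SE; exact permutation p = 0.0286, the smallest 4 against 4 allows, adjusted 0.114). miR-19b and part of miR-92a can also come from the X-linked cluster, so this ratio does not belong to the chromosome 14 transcript alone.

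**Figure D4:**
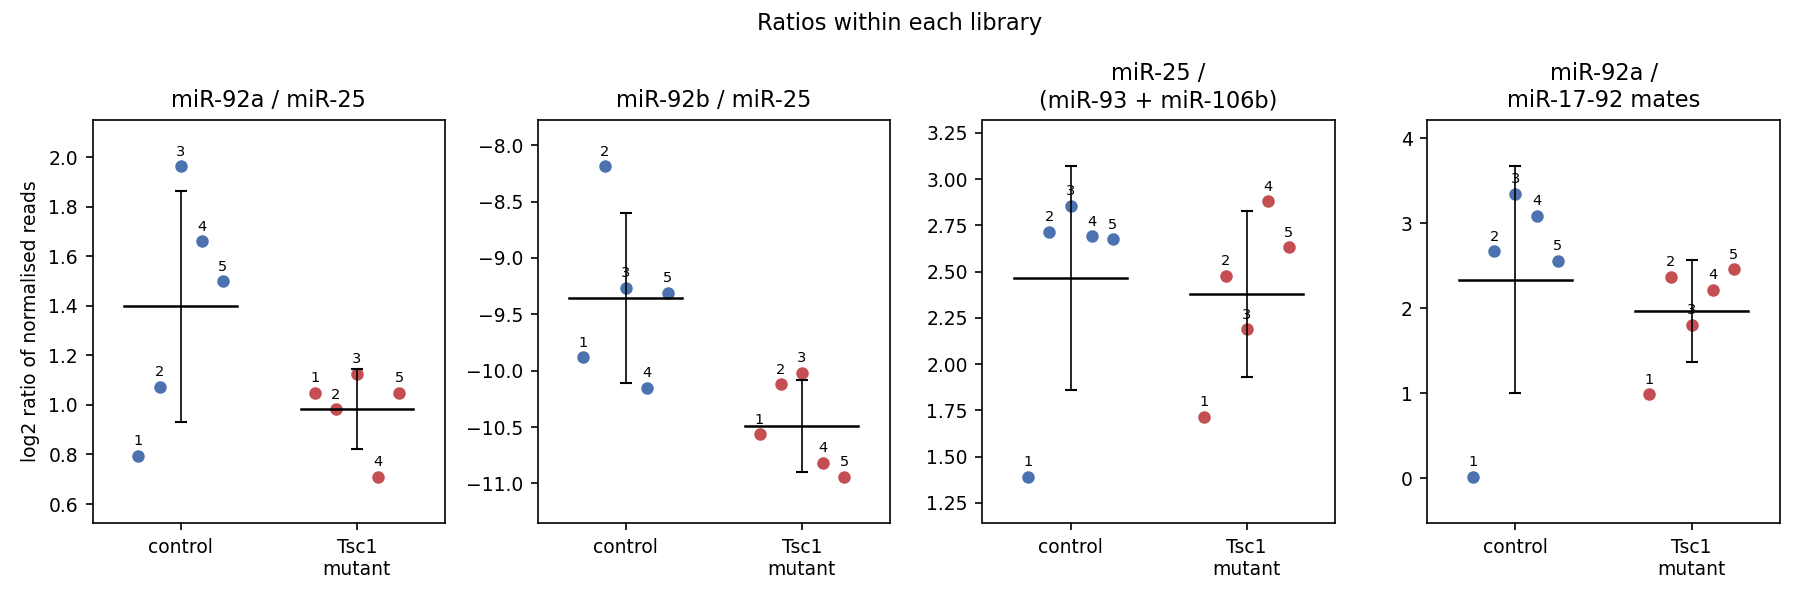
Log2 ratios of normalised reads within each library for miR-92a over miR-25, miR-92b over miR-25, miR-25 over miR-93 and miR-106b, and miR-92a over its miR-17-92 mates (blue controls, red Tsc1 mutants, numbers are replicates, lines are means and bars 1 SD, n = 5; each panel has its own scale). Replicate 1 of both genotypes is the lowest point in both ratios to mates, which were 2.62 and 3.28 for miR-25 and 1.01 and 1.99 for miR-92a before the log.

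The replicates 1 departed from the other libraries in opposite directions for members and mates of 1 transcript. Set against the median of the other 4 controls, control 1 was lower by a log2 difference of -1.33 for miR-92a, -1.11 for miR-92b, -1.02 for miR-363-3p and -0.53 for miR-25. Mutant 1 was lower than the median of the other 4 mutants by -0.32, -0.58, -0.29 and -0.47 for the same 4 members. miR-32 was the exception, higher in control 1 by 0.99 and in mutant 1 by 0.33. All 8 mates were higher in both libraries, by 0.21 to 3.07 in control 1 and 0.24 to 1.86 in mutant 1, with miR-19a and miR-19b the farthest. In control 1 miR-19b stood at 9717 normalised reads beside 1121 to 1901 in the other 4 controls. The median over all 285 microRNAs was -0.05 in control 1 and -0.03 in mutant 1.

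Base composition varied along with these deviations. miR-92b and miR-92a, the richest, were lowered in both, and miR-32, the poorest of the family, was raised. Over the 5 members and 8 mates, Pearson's r between the GC share of the mature strand and the log2 deviation was -0.69 in control 1 and -0.67 in mutant 1 (Spearman -0.72 and -0.73). Over the 5 members alone, r was -0.79 and -0.85. These 13 points come from 2 libraries and hold near-identical relatives, so they are given as a description. The order had exceptions: miR-93 (52.2%) was higher while miR-25 (11 of 22 bases) was lower, and miR-363-3p (40.9%) was lower while mates of like composition, such as miR-106b (42.9%) and miR-20a (39.1%), were higher. Whether composition had a part in the deviations was not tested.

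**Figure D5:**
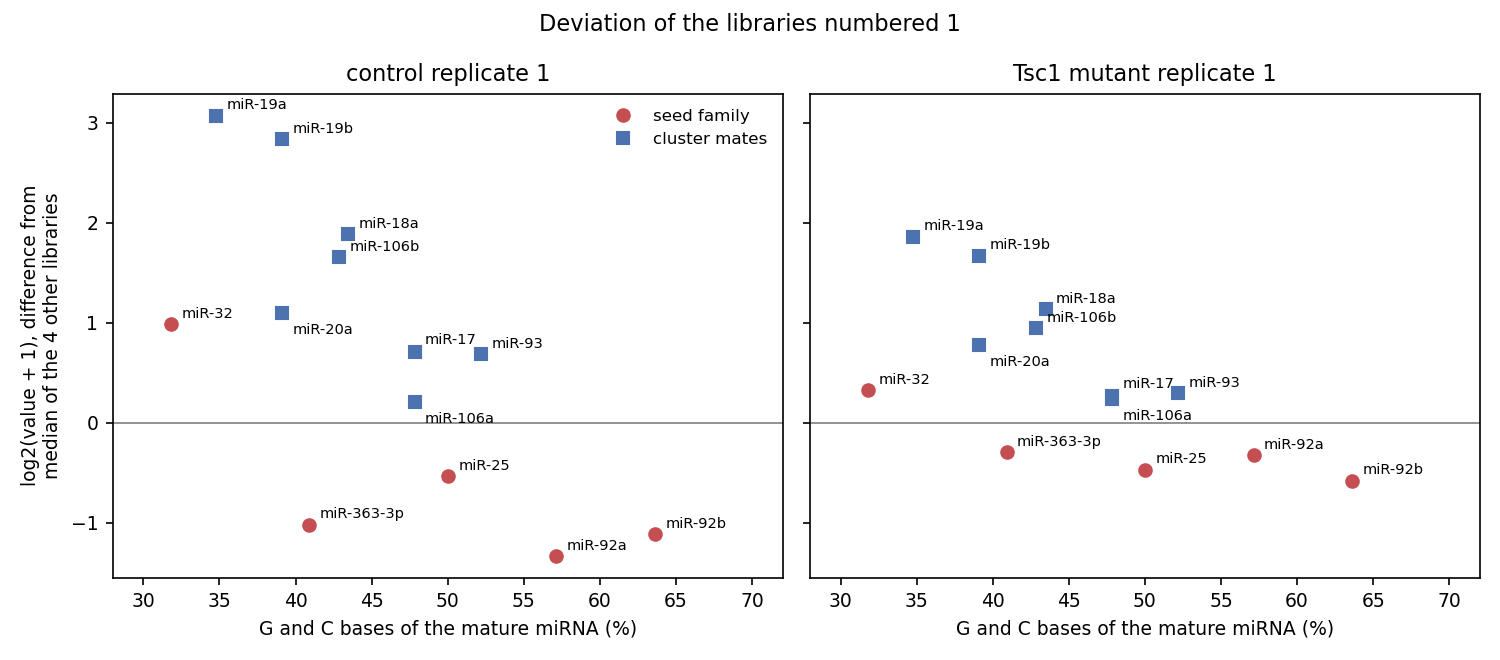
Log2 deviation of control replicate 1 (left) and mutant replicate 1 (right) from the median of the other 4 libraries of their genotype, against the G and C share of the mature strand in percent, for the family members (circles) and their cluster mates (squares). All 8 mates lie above 0 in both panels, up to miR-19a at 3.07 and 1.86, and 4 of the 5 family members lie below 0.

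Likeness between rows was measured across libraries. After the genotype means were removed, miR-92a varied most like let-7g (Pearson r = 0.96 over 10 libraries, 0.93 without the replicates 1), let-7f and miR-30d. miR-25 was the 44th of 284 rows in likeness to miR-92a (r = 0.76, and 0.26 without the replicates 1). miR-25 itself varied most like miR-340-3p, miR-126-3p and miR-125b-5p (r = 0.97, 0.97 and 0.96). miR-32 varied most like miR-374, miR-29c and miR-93 (r = 0.97, 0.95 and 0.95) and in the direction opposite to miR-25 (r = -0.87, and -0.66 without the replicates 1). miR-92b varied most like miR-495 (r = 0.87), miR-205 (0.80) and miR-433 (0.79), low rows with control means of 5.47, 23.7 and 11.9 normalised reads. With miR-92a, its nearest relative in sequence, miR-92b had r = 0.25, and -0.70 without the replicates 1. miR-363-3p varied most like miR-27b (0.96), let-7i (0.94) and miR-224 (0.92). These correlations describe 10 libraries of unequal depth, and the displacement of the replicates 1 enters those taken over all 10.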

How the data were processed

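The authors deposited 1 table of normalised reads per microRNA and library, a signal scaled by 1 factor per library. DESeq is named in the submitters' processing notes without a version, and no source used here gives the aligner, annotation or build. Each value was a whole multiple of its library's step within 0.001 of a read (100% of values), from which the reads behind it were inferred. Too few values were low enough to establish these reads as counts. They were taken as counts only in an alternative fit, limma's voom, and in the Poisson intervals. Of the 285 rows, 8 values were 0, and 0 of 45 library pairs were identical. Total RNA from whole liver was used, per the labels' protocols.

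Values plus a pseudocount of 1 were taken to log2 and tested with limma 3.58.1 in R 4.3.3 (empirical Bayes with an intensity trend, no replicate block), on microRNAs with a mean of at least 5, which all 285 reached. The fit was tested on simulated data. The 6 sums and ratios had 2-sided exact permutation tests (scipy 1.17.1), whose smallest p for 5 against 5 is 0.00794. Alternatives changed the pseudocount (0.5, 10), filter (none, a mean of 50), scaling, model, block and libraries. The members, mates and marker lists were chosen with earlier results of these data known. Named microRNAs were the members, their hairpin-cluster mates, the 3 rows most like each member by Pearson's r, miR-122 and the marker lists. Markers of erythroid cells, leukocytes, endothelium and stellate cells had median log2 fold changes of 0.11, -0.06, -0.05 and -0.10. The medians were -0.01 for hepatocytes (1 called higher, miR-802), -0.74 for biliary epithelium and -1.27 for striated muscle, with no other marker called. The striated muscle rows disagreed, at -1.27 for miR-1a, -1.99 for miR-133a and 0.73 for miR-206. Control 2 was the highest library in the biliary and striated muscle sums. All intervals are at 95%, and Poisson intervals cover counting error only.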

Additional observations from a re-analysis of the deposited data

Results flagged for a closer look

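In 38 sets of 5 libraries of 1 genotype, 11 held a library far from its neighbours by Dixon's criterion, where chance gives about 1 in 20, or 1.9. The sets share their libraries, and the ratios and sum reuse the same rows. They are not independent, so 11 cannot be weighed against 1.9. Control replicate 1 was the far library in 10 of the 11, and no mutant library was far in any set. Among them were 2 family members, miR-25 at 14500 normalised reads (20153 to 22163 in the other 4 controls) and miR-32 at 332 (157 to 175). The others were mates of miR-25 and miR-92a. miR-17 was at 2564 normalised reads (1544 to 1770 in the others), miR-18a at 47.9 (6.73 to 16.4) and miR-19a at 2012 (203 to 380). miR-20a was at 10452 (3892 to 5794) and miR-19b at 9717 (1121 to 1901). miR-106b was at 911 (238 to 321) and miR-93 at 4614 (2696 to 3111). The ratio of miR-25 to miR-93 and miR-106b was 2.62 there, beside 6.39 to 7.24. The remaining set was the ratio of miR-92b to miR-92a, at 0.00163 in control replicate 2 and 0.000278 to 0.000612 in the other controls.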

How the results depend on the processing

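Of the values recomputed under the alternatives, 367 stayed the same, 27 reversed, 8 came to pass the threshold and 10 moved. For fold changes and log2 differences, staying the same meant keeping direction and side of the threshold. For the sum and ratios, the side was fixed in advance in some settings. The smallest exact p is 0.0625 with the replicate block and 0.0571 for 3 against 4, so only the direction could change there. With 4 against 4 or 4 against 5, 1 test alone could not pass after adjustment over 6. The number that stayed the same is therefore no measure of stability for these tests. For the counts of higher and lower calls (21 and 13 of the 367), it meant staying near the main count, and the 10 that moved were all such counts. The cause was not tested for any that changed. miR-92a passed at -0.75 with array weights, -0.65 without the replicates 1 and -0.82 without control 2 as well, and ran from -0.73 to -0.30 with 1 library left out, passing without control replicate 1. miR-92b passed at -1.18 with array weights and -1.32 without the replicates 1, and ran from -1.43 to -0.88 with 1 left out, passing without control replicate 1. With a pseudocount of 10, miR-92b was at -0.84 (limma adjusted p = 0.0904) and did not pass. miR-25 ran from -0.16 to 0.035 with 1 left out. The 31 higher calls were 19 at a mean of at least 50 and 28 to 34 with 1 library left out. The 6 lower calls were 3 at a mean of 50, 23 with array weights, 11 without the replicates 1, 13 without control 2 as well and 2 to 10 with 1 left out. With 1 library left out, the log2 difference of miR-25 against miR-93 and miR-106b ran from -0.36 to 0.078, miR-17 from -0.17 to 0.018, miR-18a from -0.20 to 0.47, miR-19a from -0.84 to 0.11, miR-19b from -0.59 to 0.26, miR-20a from -0.12 to 0.25, miR-106b from -0.17 to 0.36 and miR-93 from -0.024 to 0.17. Scaled without miR-122, miR-20a was at -0.0016 and miR-106b at -0.0092, and miR-20a was at -0.0023 without the replicates 1 and control 2. Same-numbered libraries deviated together in 3 of 5 pairs (r = 0.81, 0.16, -0.02, 0.46 and 0.05) and 4 of 10 libraries matched their own number best, so the numbers were not taken as pairs. With the replicate block, miR-92b passed at -1.19 (limma adjusted p = 0.0221), miR-92a did not (0.155), and there were 35 higher and 10 lower calls. The planned edgeR fits (quasi-likelihood test and TMM scaling) were not run, because too few low values were available to establish the reads as counts. The voom fit took the inferred reads as counts all the same. It gave -0.46 for miR-92a (limma adjusted p = 0.415) and -1.25 for miR-92b (limma adjusted p = 0.0898), so neither passed. miR-92b, miR-363-3p, miR-18a and miR-106a fall below a mean of 50 and have no value there. Depth limits miR-92b and miR-363-3p, at 6 to 98 reads a library.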
